A study of Drosophila melanogaster with 4 samples.

Results

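The circadian clock genes described here are period (per), timeless (tim), Clock (Clk), cycle (cyc), vrille (vri), PAR-domain protein 1 (Pdp1), clockwork orange (cwo), cryptochrome (cry), doubletime (dbt) and shaggy (sgg) of Drosophila melanogaster. They were chosen by name as core and accessory parts of the fly clock and not by their measured values, though earlier results of these data were known. Symbols were matched to the FlyBase identifiers of the deposited table, where dbt was reached through its synonym dco, and all 10 genes were found among the 13929 genes listed. The fly clock is a negative feedback loop of transcription. The proteins of Clk and cyc form a dimer that activates per and tim, and the proteins of per and tim accumulate, enter the nucleus and block that dimer. In a second loop, vri represses and Pdp1 activates Clk, so that in fly heads the transcripts of per, tim and vri peak in the early night while those of Clk and cry peak near dawn. Photoreceptors of the compound eye carry such a clock of their own.

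The libraries held nuclear RNA of photoreceptors from males aged for 30 days, with 2 libraries labelled siTop3β and 2 labelled siControl. The siTop3β flies carried the TRiP.JF01282 RNAi construct against Top3β (a topoisomerase that acts on DNA and RNA) at attP2, and the siControl flies carried UAS-mCherry-RNAi at attP2, which targets a fluorescent protein that flies lack. Both groups also carried UAS-Dcr-2.D with w[1118], which strengthens RNAi, and the nuclear envelope tag UAS-GFP-Msp300KASH at attP2 together with rh1-GAL4 and ry[506]. Both were kept at 25 °C in a cycle of 12 h light and 12 h dark and were collected at ZT 6, which is 6 h after lights on, with a tolerance of an hour on either side in the study's methods. The rh1-GAL4 driver acts in the outer photoreceptors R1 to R6 only, so the tag and the RNAi were limited to those cells, and tagged nuclei were captured from heads of pooled flies. The study's methods describe its sequencing replicates in general as independent pools of flies, but do not describe these libraries one by one.

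The libraries held 3239201 to 4267208 counts. Levels are given as CPM, a gene's count relative to the library total after TMM scaling, and 3 counts equalled 0.697 to 0.871 CPM, which covers counting error only. The targeted gene had 57 and 71 counts in the libraries labelled siTop3β, against 70 and 57 in siControl, a log2 fold change of 0.13 (adjusted p = 0.957, edgeR's quasi-likelihood test with Benjamini-Hochberg adjustment), so the table shows no loss of the Top3β transcript. The 10 markers of R1 to R6 cells summed to 57514 and 64096 CPM in siTop3β, against 65371 and 66476 CPM in siControl, while the 4 rhodopsins of inner photoreceptors summed to 81.3 to 97.3 CPM over all libraries. Replicate 1 of siTop3β stood apart: among the 4196 genes whose counts summed to 3 or fewer over the rest of the libraries, 77.0% were counted in it, against 12.4% to 18.8% for the same measure in the other 3 libraries. These stray counts were low, with a median of 2 and a 99th percentile of 15, and the lowest clock gene of that library, cyc, had 84 counts. The fold changes of the 10 clock genes and of Eip75B are also given without this library.

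None of the 10 clock genes differed between the groups at an adjusted p under 0.05. All 10 passed the expression filter, and over all 7029 tested genes 85 were called, or 1.21%. By edgeR's quasi-likelihood test 1 of the 10, cry, fell under 0.05 before adjustment, as did 639 of the 7029 tested genes. DESeq2 gave 0 calls and 0 unadjusted p-values under 0.05 among the 10. The log2 fold change was positive in 8 and negative in 2, where 3758 of the 7029 tested genes were positive. Its median was 0.19, against 0.02 over all tested genes. In cyc, cry and dbt both siTop3β libraries lay above both siControl libraries, and in 0 of the 10 did they lie below. That arrangement is common here, since 19.6% of all tested genes lay above without overlap and 19% lay below. What stood out was the distance between libraries of the same group: per, tim, vri and cwo were much higher in siTop3β replicate 1 than in siTop3β replicate 2, with both siControl libraries between them for per, tim and vri.

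**Figure D1:**
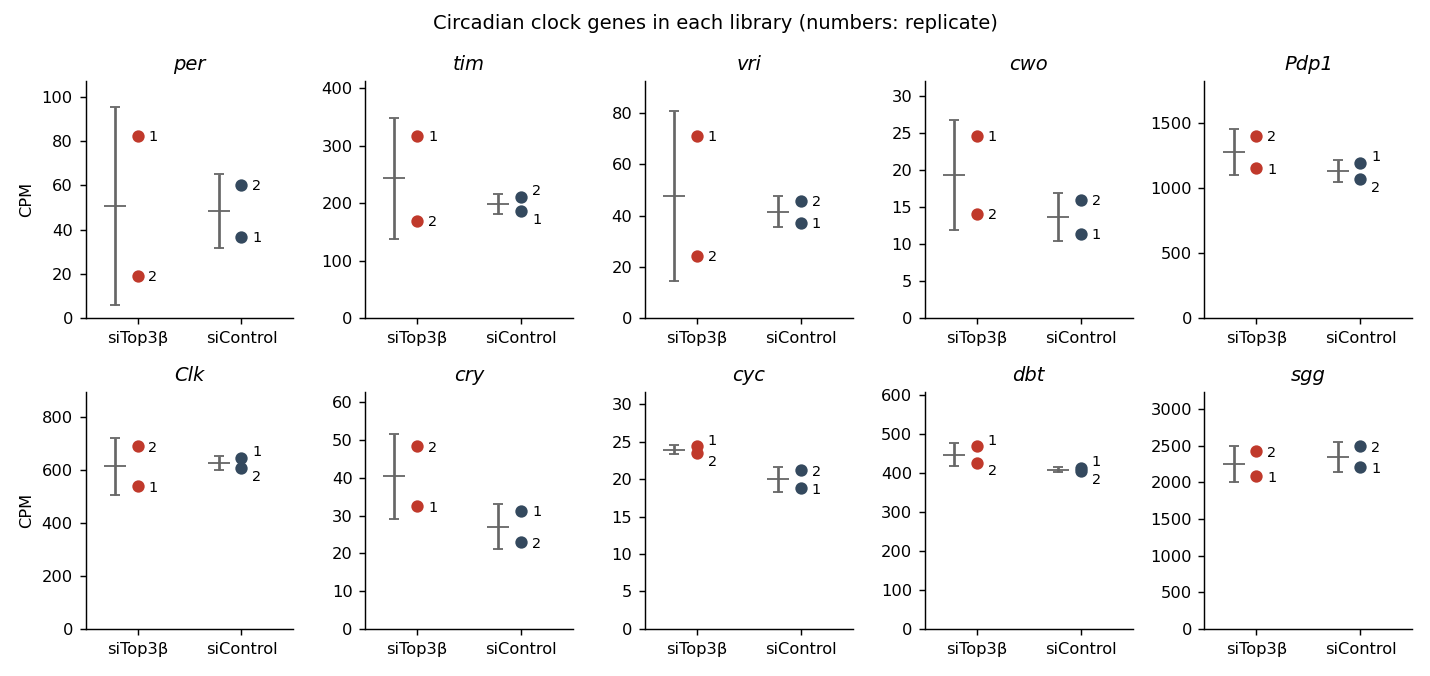
CPM of each clock gene in every library (points, with the replicate number beside each) and the group mean with its SD (bars, n = 2 each), siTop3β left and siControl right, each panel starting at 0. The siTop3β points of per lie at 82.4 and 19.2 CPM with the siControl points of 36.7 and 60.4 CPM between them, whereas the siTop3β points of cyc, cry and dbt all lie above their siControl points.

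The repressor gene per (FBgn0003068, dm6 chromosome X from 2685580 to 2692780, plus strand, a span of 7.20 kb) varied most. It had 82.4 and 19.2 CPM in siTop3β, from 284 and 72 counts, against 36.7 and 60.4 CPM in siControl, from 158 and 211 counts. Both the highest and the lowest library were thus siTop3β libraries, and the groups overlapped. The means were 50.8 ± 44.7 CPM in siTop3β and 48.5 ± 16.8 CPM in siControl (SD, n = 2 each), with a log2 fold change of 0.07 (SE 0.98, adjusted p = 0.998, edgeR's quasi-likelihood test). Its 95% interval ran from 7.79% to 1408% of the siControl level. This width depended on how the spread was estimated, since the SE was 0.40 without robust dispersion. An exon of the gene dyw, on the opposite strand, overlaps per by 0.049 kb.

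The other repressor gene tim (FBgn0014396, chromosome 2L from 3493986 to 3508119, minus strand), whose protein is degraded in light, had 317 and 169 CPM in siTop3β, against 186 and 210.3 CPM in siControl. It showed the same layout as per at a smaller scale, with the siTop3β libraries at both ends. The means were 243 ± 105 CPM in siTop3β and 198 ± 17.2 CPM in siControl (SD, n = 2 each). The log2 fold change was 0.29 (SE 0.34, adjusted p = 0.907, edgeR's quasi-likelihood test), with an interval of 63.2% to 237% of the siControl level. Exons of tim are overlapped by 0.545 kb of lncRNA:CR46495 on the opposite strand and by 0.151 kb of a snoRNA on the same strand. Neither RNA is among the genes listed.

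Among the activators, Clk (FBgn0023076, chromosome 3L from 7763233 to 7775603, minus strand), a bHLH-PAS transcription factor, had 539 and 690.2 CPM in siTop3β, against 648 and 609 CPM in siControl. The order of the libraries was the reverse of that for per and tim, with siTop3β replicate 1 lowest and siTop3β replicate 2 highest. Its log2 fold change was -0.03 (SE 0.15, adjusted p = 0.985, edgeR's quasi-likelihood test), and the interval of 79.6% to 120.3% of the siControl level was among the narrowest of the 10. The gene CG32371 lies inside an intron of Clk on the same strand. The partner gene cyc (FBgn0023094, chromosome 3L from 19813770 to 19815938, minus strand), whose transcript is known to stay level through the day, had 24.4 and 23.5 CPM in siTop3β, against 18.8 and 21.2 CPM in siControl. Its libraries were nearly alike within siTop3β and both lay above siControl, with a log2 fold change of 0.26 (SE 0.23, adjusted p = 0.829, edgeR's quasi-likelihood test), which did not pass the threshold.

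In the second loop, vri (FBgn0016076, chromosome 2L from 5288944 to 5311223, plus strand), which encodes the bZIP repressor of Clk, had 71.1 and 24.3 CPM in siTop3β, against 37.2 and 45.8 CPM in siControl. As for per, the siControl libraries sat between the siTop3β libraries. The log2 fold change was 0.20 (SE 0.70, adjusted p = 0.979, edgeR's quasi-likelihood test), with an interval of 19.9% to 661% of the siControl level, and the SE was 0.32 without robust dispersion. The activator Pdp1 (FBgn0016694, chromosome 3L from 7811458 to 7867369, minus strand, 55.9 kb) had 1153 and 1403 CPM in siTop3β, against 1193 and 1071 CPM in siControl, a log2 fold change of 0.17 (SE 0.15, adjusted p = 0.822, edgeR's quasi-likelihood test). Its siTop3β replicate 2 was the highest library, as for Clk and unlike vri. The table holds 1 value for the gene, which has 13 annotated transcripts, so the isoform that acts in the clock cannot be told apart from the others. The E-box repressor gene cwo (FBgn0259938, chromosome 3R from 10388258 to 10400752, plus strand) was the least counted, with 85 and 53 counts in siTop3β, against 49 and 56 in siControl. That amounts to 24.7 and 14.2 CPM in siTop3β, against 11.4 and 16.0 CPM in siControl, and a log2 fold change of 0.51 (SE 0.29, adjusted p = 0.657, edgeR's quasi-likelihood test). The groups of cwo overlapped, with siTop3β replicate 1 highest and siControl replicate 1 lowest.

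The blue light receptor gene cry (FBgn0025680, chromosome 3R from 19212154 to 19215442, plus strand), whose protein binds that of tim in light, had the largest log2 fold change of the 10. It had 32.5 and 48.3 CPM in siTop3β, against 31.3 and 22.9 CPM in siControl, with means of 40.4 ± 11.2 CPM in siTop3β and 27.1 ± 5.98 CPM in siControl (SD, n = 2 each). The log2 fold change was 0.57 (SE 0.22, adjusted p = 0.333, edgeR's quasi-likelihood test). The groups did not overlap, yet siTop3β replicate 1 and siControl replicate 1 were nearly alike, so the difference came largely from siTop3β replicate 2 and siControl replicate 2. The gene vib, on the opposite strand, overlaps cry by 0.009 kb. Exons of lncRNA:CR46393, on the same strand, overlap those of cry by 0.329 kb, and that RNA is not among the genes listed.

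The kinase genes differed little between libraries. The casein kinase gene dbt (FBgn0002413, chromosome 3R from 31054085 to 31061210, minus strand), which phosphorylates the per protein and leads to its turnover, had 467 and 426 CPM in siTop3β, against 412 and 404 CPM in siControl. Both siTop3β libraries were higher, by a log2 fold change of 0.13 (SE 0.14, adjusted p = 0.873, edgeR's quasi-likelihood test) that did not pass the threshold. The glycogen synthase kinase 3 gene sgg (FBgn0003371, chromosome X from 2633952 to 2679553, plus strand, 45.6 kb), which phosphorylates the tim protein and also acts in Wnt signalling, had 2081 and 2427 CPM in siTop3β, against 2205 and 2491 CPM in siControl. The groups overlapped, and the log2 fold change was -0.06 (SE 0.15, adjusted p = 0.972, edgeR's quasi-likelihood test). Exons of sgg overlap lncRNA:CR45197, on the same strand and not among the genes listed, by 1.47 kb. In bulk RNA such as this, fewer cells of a type and less RNA per cell cannot be told apart for any of these genes.

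**Figure D2:**
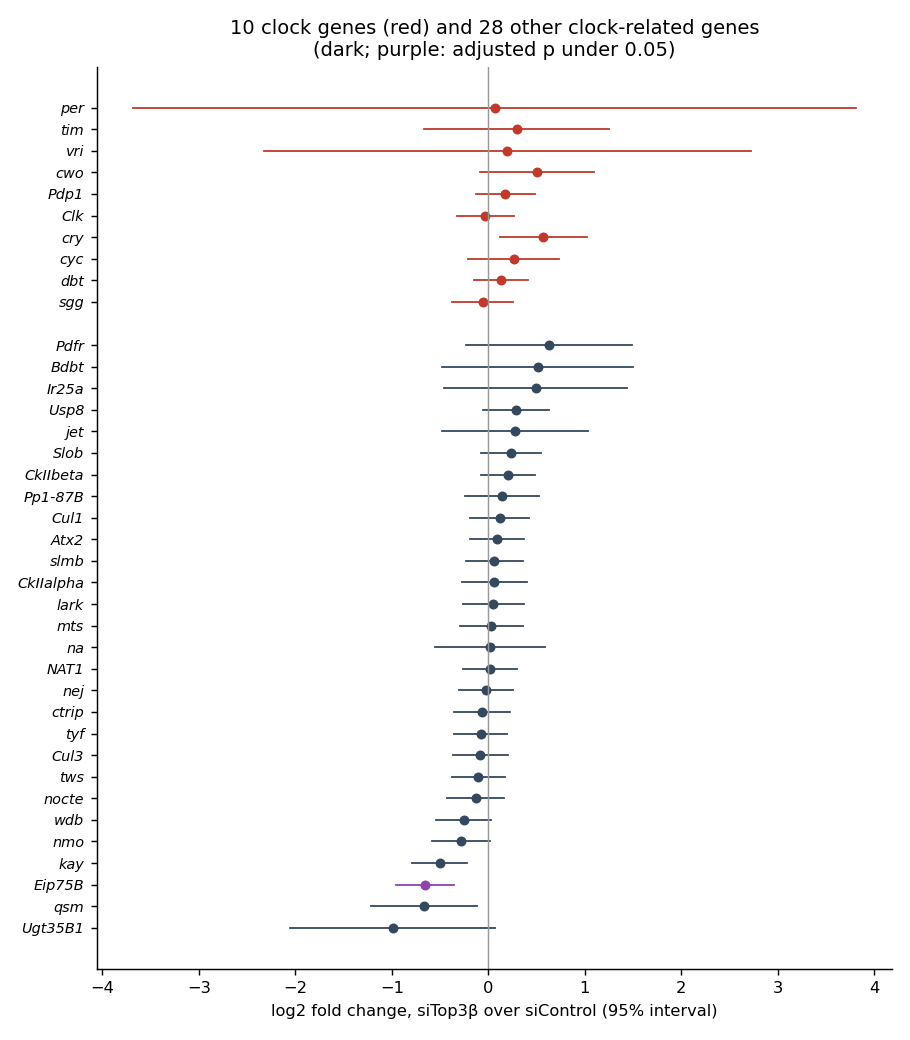
Log2 fold change of siTop3β over siControl (points) with its 95% interval (lines, edgeR, n = 2 each) for the 10 clock genes (red) and for 28 other clock-related genes that passed the expression filter (dark, and purple for the gene past the threshold). The intervals of per (-3.68 to 3.82) and vri (-2.33 to 2.72) are the widest, and the line of Eip75B lies wholly below 0.

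Most of the clock genes differed between replicates in opposite directions in the 2 groups. Over all tested genes, deviations from the group means correlated at -0.12 between same-numbered libraries. A change of direction alone therefore does not set the clock genes apart. Within siTop3β, replicate 1 exceeded replicate 2 by 4.29-fold for per (95% interval 3.30 to 5.63), 2.93-fold for vri (2.29 to 3.76), 1.88-fold for tim (1.70 to 2.07) and 1.74-fold for cwo (1.22 to 2.51), where each interval is an exact binomial one and covers counting error only. In the opposite direction, siTop3β replicate 2 exceeded replicate 1 by 1.49-fold for cry (1.17 to 1.90), 1.28-fold for Clk (1.21 to 1.36) and 1.22-fold for Pdp1 (1.17 to 1.27). None of these intervals includes 1. The siControl libraries showed the same groups of genes moving in opposite directions, but smaller and with replicate 2 in the place of replicate 1. There, replicate 2 exceeded replicate 1 by 1.65-fold for per (1.33 to 2.04) and 1.13-fold for tim (1.02 to 1.25), and replicate 1 exceeded replicate 2 by 1.37-fold for cry (1.03 to 1.83), 1.06-fold for Clk (1.00 to 1.13) and 1.11-fold for Pdp1 (1.07 to 1.16). For vri (1.23-fold, 0.984 to 1.54) and cwo (1.41-fold, 0.943 to 2.11) replicate 2 of siControl was also the higher one, with intervals that include 1. Of the remaining genes, sgg and dbt did not share this pattern, while cyc had the directions of per with small differences. The sgg gene was higher in replicate 2 in both groups, by 1.17-fold (1.13 to 1.20) in siTop3β and 1.13-fold (1.10 to 1.16) in siControl, and dbt was higher in replicate 1 in both, by 1.10-fold (1.02 to 1.18) in siTop3β and 1.02-fold (0.950 to 1.09) in siControl. For cyc replicate 1 exceeded replicate 2 by 1.04-fold (0.760 to 1.42) in siTop3β, and replicate 2 exceeded replicate 1 by 1.13-fold (0.810 to 1.56) in siControl, with intervals that include 1. Replicate numbers are names only, and nothing in the labels pairs libraries across the groups.

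**Figure D3:**
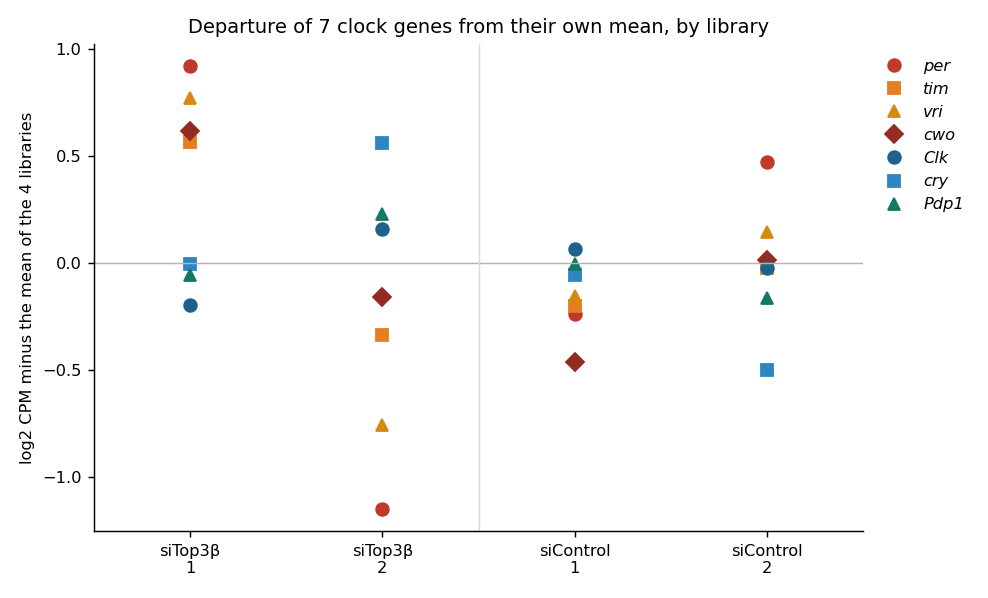
Log2 CPM of 7 clock genes in each library minus the gene's own mean over the 4 libraries, with siTop3β replicates 1 and 2 left of siControl replicates 1 and 2. In siTop3β replicate 1 per, vri, tim and cwo lie between 0.57 and 0.92 above their means while Clk lies at -0.20, and in siTop3β replicate 2 per, vri, tim and cwo lie between -1.15 and -0.16 while Clk, Pdp1 and cry lie between 0.16 and 0.56.

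To place the libraries on 1 scale, the mean log2 CPM of Clk and cry was subtracted from that of per, tim and vri. In fly heads this contrast climbs from morning to early night, as background knowledge of these transcripts. It was -0.11 and -2.07 in siTop3β, against -1.17 and -0.51 in siControl. The siTop3β libraries were therefore at both ends of the scale and the siControl libraries between them. The means were -1.09 ± 1.39 in siTop3β and -0.84 ± 0.47 in siControl (SD, n = 2 each), a difference of -0.26, whereas the siTop3β libraries lay 1.96 apart and the siControl libraries 0.66. No test was made, since an exact permutation of 2 against 2 libraries cannot go below p = 0.333. Both terms of the contrast took part: the mean of per, tim and vri was 6.95 and 5.45 log2 CPM in siTop3β, against 6.00 and 6.39 in siControl, and that of Clk and cry was 7.06 and 7.52 in siTop3β, against 7.17 and 6.90 in siControl. With cwo added to the first term and Pdp1 as well, the contrast was 0.07 and -1.39 in siTop3β, against -0.81 and -0.24 in siControl, which leaves the order of the libraries as it was.

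Ratios of raw counts to those of Clk, which need no scaling between libraries, gave the same order. The count of per per count of Clk was 0.153 and 0.0279 in siTop3β, against 0.0567 and 0.0992 in siControl. For vri per count of Clk it was 0.132 and 0.0352 in siTop3β, against 0.0574 and 0.0752 in siControl, and for tim 0.588 and 0.245 in siTop3β, against 0.287 and 0.345 in siControl. In each of these ratios siTop3β replicate 1 came first, then siControl replicate 2, siControl replicate 1 and siTop3β replicate 2. Against cry the first places were exchanged for per, which had 2.54 and 0.398 counts for each count of cry in siTop3β, against 1.17 and 2.64 in siControl, so that siControl replicate 2 came just before siTop3β replicate 1. All libraries carry the label ZT 6, with the tolerance given above, and collection times of single libraries are not given in the sources used here, so whether the time of collection differed between them was not tested beyond these values.

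Within siTop3β, the replicate differences of per, vri and tim were large beside those of the other tested genes, whereas in siControl those of tim and vri were not. Over all tested genes the median absolute difference between replicates was 0.27 log2 units in siTop3β and 0.24 in siControl. In siTop3β, 99.3% of the tested genes had a smaller difference than per, 97.7% a smaller one than vri, 90.5% than tim and 87.4% than cwo. Low counts widen that comparison, and among the 2370 genes with a mean of at least 30 CPM, a level chosen after the values were seen, per ranked 2, vri 6 and tim 12 by the size of the siTop3β difference, while cry ranked 74 and Clk 364. In siControl per ranked 30 among the same genes, and tim, vri and Clk ranked 900, 376 and 1567. The differences of cyc and dbt were smaller, with 11.6% of tested genes below cyc and 28.3% below dbt in siTop3β, and 38.0% below cyc and 6.49% below dbt in siControl. These ranks describe the libraries and carry no test.

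**Figure D4:**
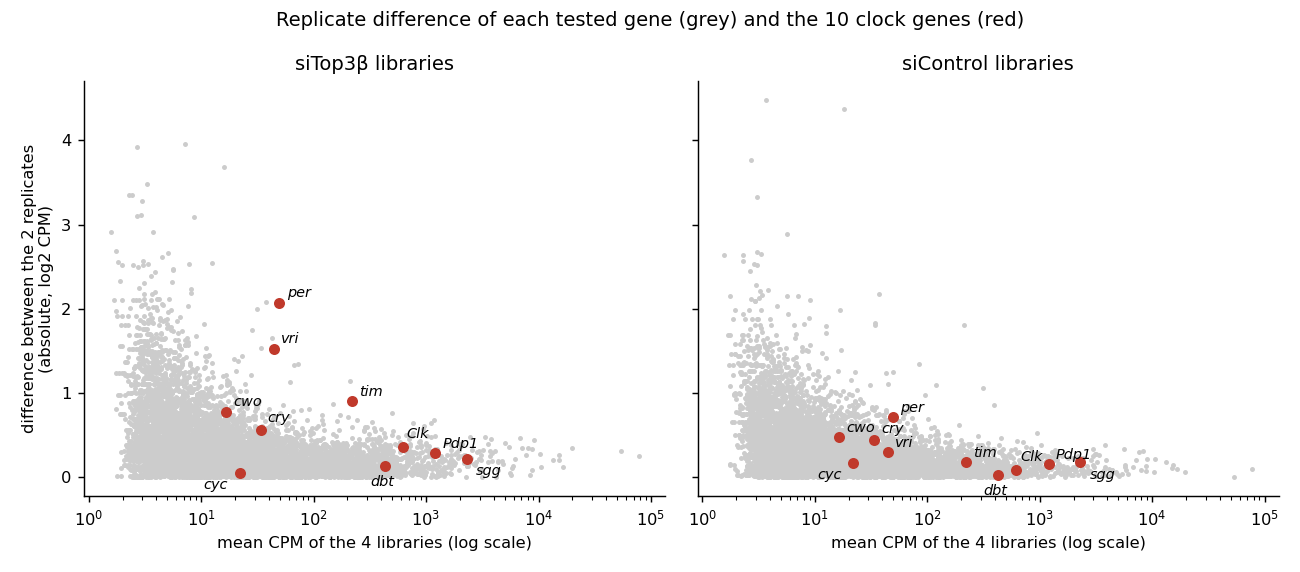
Absolute difference between the 2 replicates of a group in log2 CPM against mean CPM of the 4 libraries (log scale), for every tested gene (grey) and the 10 clock genes (red), siTop3β left and siControl right. In siTop3β per lies at 2.07, vri at 1.53 and tim at 0.90, at the upper edge of genes of similar level, and in siControl the highest clock gene is per at 0.71.

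Several properties of the libraries moved along with this pattern, and their part in it was not tested. The markers of blood cells, Hml and NimC1, summed to 38.3 and 19.2 CPM in siTop3β, against 20.9 and 25.8 CPM in siControl, which is the same order of libraries as for per. Markers of clock neurons (Pdf, NPF, ITP and Dh31) summed to 18.0 and 13.6 CPM in siTop3β, against 12.8 and 16.0 CPM in siControl. In each group the library with more per thus also had the higher sum of both lists. Hml and ITP made up most of these sums, and each had the same higher library as per. The other members were low in siTop3β replicate 1, with 11 counts for NimC1, 8 for NPF, 7 for Dh31 and 5 for Pdf. Those counts lie within the range of that library's stray counts, whose 99th percentile was 15. None of these low members had the same higher library as per in both groups. In siControl, replicate 1 was the higher one for NimC1 (8 and 2 counts), NPF (2 and 1) and Pdf (5 and 3). In siTop3β, Dh31 was slightly higher in replicate 2, with 2.03 and 2.14 CPM. Pdf itself, the neuropeptide that defines the main pacemaker neurons, had 5 and 2 counts in siTop3β, against 5 and 3 in siControl, close to the floor of 3 counts. The sum of glial markers had its higher library in the same place as per in each group, and that of other neurons did so in siTop3β only. The 6 glial markers summed to 103 and 83.8 CPM in siTop3β, against 96.4 and 105 CPM in siControl, and repo, the transcription factor that defines glia, had 20 and 12 counts in siTop3β, against 25 and 13 in siControl. Of these markers only Eaat1 had the same higher library as per in both groups, with 36.9 and 21.1 CPM in siTop3β, against 27.6 and 34.3 CPM in siControl. The order was opposite to that of per in siControl for repo, alrm and Gat, and in siTop3β for moody and Gs2. The glial sum thus does not describe the list as a whole. The 5 markers of other neurons summed to 139.6 and 120.2 CPM in siTop3β, against 159.5 and 152.5 CPM in siControl. The abundant markers of the captured cells did not follow per. The rhodopsin gene ninaE, the defining gene of R1 to R6 cells, had 51109 and 60612 counts in siTop3β, against 78380 and 59657 in siControl. Fat body markers summed to 558 and 639.7 CPM in siTop3β, against 888 and 933 CPM in siControl. Nearly all of each sum was apolpp, with 551 and 635 CPM in siTop3β, against 884 and 925 CPM in siControl. It was lower in siTop3β (log2 fold change -0.61, adjusted p = 0.0230, edgeR's quasi-likelihood test). The rest of the list did not share this: Lsp2 had a log2 fold change of -0.06 with overlapping groups. Fbp1 had 6 and 0 counts in siTop3β, against 1 and 1 in siControl. The lower fat body sums of siTop3β thus describe apolpp. Muscle markers (Mhc and Act88F) summed to 23.8 and 41.1 CPM in siTop3β, against 19.0 and 41.2 CPM in siControl, and Act88F was at 0 counts in both siControl libraries. The cone and pigment cell marker Crys had 3.77 and 1.33 CPM in siTop3β, against 2.09 and 7.15 CPM in siControl, so Crys but not the muscle list had the same higher library as per in each group. The 13 counts of Crys in siTop3β replicate 1 were also within the range of the stray counts. Total counts were 3239201 and 3965125 in siTop3β, against 4267208 and 3615880 in siControl, so the libraries with the higher contrast in each group also had the lower totals.

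Because the replicates differed this much, calls for the clock genes depended on which siTop3β library was used. Without siTop3β replicate 1, per was lower in the remaining siTop3β library than in siControl, with a log2 fold change of -1.32 (adjusted p = 1e-04, edgeR's quasi-likelihood test), and cry was higher by 0.83 (adjusted p = 0.0401 in the same fit). Without siTop3β replicate 2 the direction of per turned round, to 0.73 (adjusted p = 0.0114, edgeR's quasi-likelihood test), and tim was higher by 0.64 (adjusted p = 0.000944) and vri by 0.74 (adjusted p = 0.0181). So 2 of the 10 clock genes were called in the first case, where 1.81% of all tested genes were, and 3 of 10 in the second, where 5.22% were. The lone siTop3β library is assumed in these fits to vary as the siControl libraries do, which the siTop3β values of per, tim and vri do not bear out. Values short of the threshold also moved far. Without siTop3β replicate 1 the log2 fold change was 0.06 for cwo, -0.23 for tim, -0.77 for vri, 0.14 for Clk, 0.31 for Pdp1, 0.24 for cyc, 0.06 for dbt and 0.05 for sgg. Without siTop3β replicate 2 it was 0.82 for cwo and 0.21 for cry. The value of cwo thus nearly vanished without siTop3β replicate 1, and that of cry shrank without siTop3β replicate 2. Without siControl replicate 1 the lowest adjusted p of the 10 was 0.371, for cry, and without siControl replicate 2 it was 0.724, for cwo, by the same edgeR test.

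Compared per kilobase of exon, the clock genes spanned a wide range of levels in these nuclei. The highest was sgg, with a mean of 180.3 CPM per kb in siTop3β and 188 in siControl, followed by Clk with 136 in siTop3β and 139 in siControl. Next came Pdp1 (105 CPM per kb in siTop3β and 93.3 in siControl) and dbt (93.3 in siTop3β and 85.3 in siControl), whose libraries overlapped each other. Of the 6987 tested genes with an annotated length, 98.1% lay at a lower mean level than sgg, 97.3% lower than Clk and 95.2% lower than dbt. A second tier held tim at 34.5 CPM per kb in siTop3β and 28.2 in siControl, cry at 21.3 in siTop3β and 14.3 in siControl, and cyc at 14.7 in siTop3β and 12.3 in siControl. It also held per at 11.2 in siTop3β and 10.7 in siControl, and vri at 10.1 in siTop3β and 8.75 in siControl. Each neighbour in this tier overlapped the next over the libraries, while every library of tim lay above every library of cyc, per and vri. The lowest was cwo, at 3.81 CPM per kb in siTop3β and 2.69 in siControl, below vri in every library, with 28.0% of tested genes at a lower level. Clk thus stood far above its partner cyc in each library, with 119 and 153 CPM per kb in siTop3β, against 143 and 135 in siControl, where cyc had 15.0 and 14.5 in siTop3β, against 11.6 and 13.0 in siControl. Whether reads on introns were counted is not stated, and if they were, these levels would favour genes with long introns.

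Beyond the 10, a list of 31 other genes tied to the fly clock was examined: kinases and phosphatases, the ubiquitin pathway, translation factors of per, transcription factors, light and temperature input, and outputs. Of the 28 that passed the filter, 0 were higher and 1 was lower at an adjusted p under 0.05, where 0.825% of all tested genes were lower, and the median log2 fold change was 0.03. Both siTop3β libraries lay above siControl for 5 of the 28 and below for 8, where 19.6% of all tested genes lay above and 19% below. The gene called was Eip75B, a heme-binding nuclear receptor induced by ecdysone that acts in the clock of pacemaker neurons, with 321 and 355 CPM in siTop3β, against 601 and 462 CPM in siControl. Its log2 fold change was -0.65 (SE 0.15, adjusted p = 0.0150, edgeR's quasi-likelihood test), and the call was lost without siControl replicate 1 (adjusted p = 0.911). Without siTop3β replicate 1 it was -0.58 (adjusted p = 0.00578, edgeR's quasi-likelihood test). Eip75B is also in a list of genes that the study drew from these libraries, so its direction is not independent evidence. The larger fold changes of the list came from genes of low count that did not pass. Ugt35B1, a glycosyltransferase whose transcript cycles in fly heads, had 2.90 and 2.94 CPM in siTop3β, against 6.73 and 4.86 CPM in siControl (log2 fold change -0.99, adjusted p = 0.599, edgeR's quasi-likelihood test). The light input gene qsm had 13.1 and 10.1 CPM in siTop3β, against 18.1 and 18.6 CPM in siControl (log2 fold change -0.66, adjusted p = 0.374, edgeR's quasi-likelihood test).

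The most abundant genes of that list per kilobase gave small differences. Slob, a potassium channel binding protein whose transcript cycles in fly heads, had a mean of 288 CPM per kb in siTop3β and 244 in siControl, with a log2 fold change of 0.24 (adjusted p = 0.733, edgeR's quasi-likelihood test). The regulatory subunits of protein phosphatase 2A, wdb and tws, which act on the per protein, had log2 fold changes of -0.26 (adjusted p = 0.643) and -0.10 (adjusted p = 0.908) in the same test. The Fos gene kay, named after its values were seen, came close to the threshold, with 195 and 180.2 CPM in siTop3β, against 248 and 286 CPM in siControl (log2 fold change -0.51, adjusted p = 0.0645, edgeR's quasi-likelihood test). For kay and Eip75B the groups did not overlap, unlike per, tim and vri.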

How the data were processed

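Nuclear RNA of captured photoreceptor nuclei was sequenced in 4 libraries, 2 a group. Ribosomal RNA was depleted, reads were trimmed (Trimmomatic) and aligned (STAR, dm6), and the authors deposited unnormalized counts for each gene. The counter, its annotation, and its use of strand, introns and multiple alignments are not given in the sources used here. Groups came from the sample labels.

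All genes were fitted with edgeR 4.0.16 (R 4.3.3) using TMM, its expression filter and the robust quasi-likelihood test without a replicate block, with Benjamini-Hochberg adjustment over 7029 genes and a threshold of 0.05. The SE is the absolute log2 fold change over the root of F. Single-library log2 CPM used a prior count of 2. Coordinates and lengths came from Ensembl release 115, which covers 13866 of 13929 identifiers. Alternatives were DESeq2 1.42.0, other scalings, filters, dispersion, blocks and single libraries left out.

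The clock genes and the other lists were chosen with earlier results of these data known. Named are all 10 clock genes, Top3β, Pdf, repo, ninaE and any marker called, and of the other clock-related genes those called, the 3 with the largest fold change and the 3 with the highest CPM per kb. Replicates differed beyond counting noise (chi-square per degree of freedom 8.99 in siTop3β and 9.10 in siControl), so each was kept as a replicate. No sequences were used.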

Additional observations from a re-analysis of the deposited data

How the results depend on the processing

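No clock gene was called under the 9 alternatives that kept all libraries. The number called over all genes, 85, was 138 with at least 10 counts in every library, 51 by DESeq2's Wald test, 134 at an adjusted p under 0.1, and 52 to 424 with 1 library left out. Leaving out 1 library gave 0 to 3 clock genes and 0 to 2 other clock-related genes. The other clock-related genes had 2 calls with at least 10 counts in every library and 2 at an adjusted p under 0.1 (Eip75B and kay), and 0 without robust dispersion, where Eip75B had an adjusted p of 0.0545 in edgeR's quasi-likelihood test.

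Deviations from the group means correlated at -0.12 between same-numbered libraries, which share only a number. With the replicate block 60 genes were called, 0 of them clock genes and Eip75B among them. A crossed block, chosen after the data were seen, gave 211 calls, 0 clock genes and 2 other clock-related genes.

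The sign of per turned under DESeq2's size factors (-0.0192), with every counted gene kept (-0.00042), under DESeq2 (-0.0271), with the block (-0.14) and with the crossed block (-0.13). The median of all genes was 0.02, 0.21 with every counted gene and 0.19 under DESeq2. With 1 library left out, log2 fold changes ran from -1.32 to 0.73 for per, -0.23 to 0.64 for tim, -0.77 to 0.74 for vri, -0.26 to 0.14 for Clk, -0.0141 to 0.31 for Pdp1, -0.21 to 0.0487 for sgg and -0.0174 to 0.22 for Top3β. They ran from 0.06 to 0.82 for cwo, 0.21 to 0.83 for cry, 0.15 to 0.33 for cyc and 0.06 to 0.16 for dbt. The SE of per, 0.98, was 0.40 without robust dispersion and 0.18 with the crossed block. Of 120 alternative values of clock genes 103 kept direction and side of the threshold. The phase contrast between groups, -0.26, ran from -1.24 to 0.73. The cause of these changes was not tested.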

Other observations

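The genes with the largest difference between the siTop3β replicates at a mean of at least 30 CPM were not all clock genes. CG5071 came first, with 76.0 and 17.6 CPM in siTop3β, against 9.75 and 46.1 CPM in siControl, and so had the same order of extremes within each group as per. Of the remaining 9 genes among the first 10, per and vri ranked 2 and 6, and the heat shock genes Hsp26 and Hsp68 ranked 4 and 8. Hsp26 had 64.1 and 20.0 CPM in siTop3β, against 48.8 and 37.2 CPM in siControl, and Hsp68 had 89.1 and 35.0 CPM in siTop3β, against 81.7 and 59.8 CPM in siControl. These chaperone genes followed per within siTop3β but not within siControl, where replicate 1 was higher. CG7878, with 96.4 and 37.6 CPM in siTop3β, against 59.2 and 97.0 CPM in siControl, followed per in both groups. CG3626 was higher in siTop3β replicate 1 as well, with 185 and 83.8 CPM in siTop3β, against 127 and 449 CPM in siControl. All of these genes were chosen after their values were seen, and no test was made of them.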
